A study of Mus musculus with 6 samples.

Results

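The ubiquitin ligases of muscle atrophy, Fbxo32 (atrogin-1), Trim63 (MuRF1), Trim54 (MuRF3) and Trim55 (MuRF2), and the FoxO factors Foxo1 and Foxo3 were read in heart RNA from 3 sham-operated mice. These 6 genes, 4 ligases and 2 FoxO factors, were chosen by name from a table of counts for 17447 gene symbols, and all 6 had a row. The series holds 6 heart samples from wild-type mice, 3 after sham surgery and 3 with chronic kidney disease (CKD) after staged subtotal nephrectomy. Sham mice were anaesthetized and had the abdomen opened and the kidneys exposed, but kept all renal tissue. The sources used here give no strain, age, time after surgery or sampled part of the heart, and all 6 samples carry 1 batch label. Replicate numbers are the sole sign in the labels that samples came from different animals, so the spread between them may be technical in part.

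Striated muscle breaks down proteins largely by tagging them with ubiquitin for the proteasome, and ubiquitin ligases choose which proteins are tagged. Fbxo32 is the substrate-binding subunit of a ligase built on Skp1, Cul1 and Rbx1. The 3 MuRF proteins are RING-finger ligases of the sarcomere that bind titin or microtubules and can form dimers with each other. FoxO transcription factors raise Fbxo32 and Trim63 during atrophy, and insulin and IGF signalling through AKT keeps FoxO factors out of the nucleus. In the heart, Fbxo32 and Trim63 are also known as brakes on hypertrophic growth.

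Promoter windows of 250 bases before the gene start came from RefSeq (GRCm38.p6) and were at hand for 4 members: Trim63, Trim54, Foxo1 and Foxo3. Fbxo32 and Trim55 had no window and were not searched. The promoter of Trim63 is printed because, of these 4 windows, it alone held letters that match a FoxO element. That of Trim54 is printed because this related gene took another order over the hearts. The sequences run 5′ to 3′, and capitals mark a match to the FoxO element GTAAACA, searched on both strands and found here as its reverse complement. The windows are chr4:134314870-134315119 and chr5:31116362-31116611, both on the + strand.
Trim63: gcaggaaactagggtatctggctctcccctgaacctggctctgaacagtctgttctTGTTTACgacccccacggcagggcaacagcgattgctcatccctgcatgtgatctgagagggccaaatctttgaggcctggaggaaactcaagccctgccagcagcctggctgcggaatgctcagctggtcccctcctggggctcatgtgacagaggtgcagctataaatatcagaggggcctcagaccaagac
Trim54: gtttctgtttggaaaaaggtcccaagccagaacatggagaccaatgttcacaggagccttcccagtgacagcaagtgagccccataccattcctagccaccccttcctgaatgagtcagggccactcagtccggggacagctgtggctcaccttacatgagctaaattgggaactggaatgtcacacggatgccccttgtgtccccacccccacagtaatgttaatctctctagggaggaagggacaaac

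In Trim63 the FoxO element began at position -194 from the gene start, on the minus strand. Of 32851 promoter windows in the table, 3.17% held these letters. The windows of Trim54, Foxo1 and Foxo3 did not hold them, and a match describes letters and not binding.

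The row labels were checked before any level was read. Rank correlations (Spearman) over all rows were 0.982 to 0.985 among the sham columns (3 pairs), 0.984 to 0.987 among the CKD columns (3 pairs) and -0.0586 to -0.0528 from sham to CKD (9 pairs). They run across genes, and genes are no independent replicates. Myh6, the main myosin heavy chain of the adult mouse heart, had 362529, 443278 and 474768 counts in the sham hearts, where the CKD columns had 0, 0 and 1. The Fbxo32 row held 98, 98 and 88 counts in CKD, and the Foxo3 row 8491, 8142 and 8314. The rows of Trim63 (3999, 3967 and 3559 counts) and Trim54 (4249, 4278 and 4423) stood near their sham counts, but they sit in the same columns as the near-empty Myh6 row. The CKD values were therefore not read as levels of these genes, no comparison of CKD with sham was made, and every level below is from sham hearts.

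All 6 genes were well measured in sham hearts, with 403 counts or more in each. Levels are given in CPM, the count scaled to the column total, which was 10480788, 10474487 and 12669724 in sham 1, 2 and 3. Each single-heart level has a 95% exact Poisson interval, which covers counting error only. The 4 ligases together took 965, 958 and 897 CPM in sham 1, 2 and 3, and the 2 FoxO factors 159, 187 and 139 CPM. In every heart the summed ligase level was above the summed FoxO level.

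Fbxo32, the F-box ligase, gave 2635, 2258 and 2462 counts, or 251, 216 and 194 CPM in sham 1, 2 and 3. It was highest in sham 1 and lowest in sham 3, and the Poisson intervals of the 3 hearts did not overlap. Its mean was 220.4 ± 28.9 CPM (SD, n = 3), above 96.0% of all rows.

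Trim63, the MuRF most closely tied to atrophy, gave 3233, 2525 and 3188 counts, or 308, 241 and 252 CPM. Sham 1 stood above both other hearts, whose intervals overlapped. The mean was 267 ± 36.3 CPM (SD, n = 3). With scaling by edgeR's TMM method the lowest heart became sham 3, at 245 CPM against 253 in sham 2, while sham 1 stayed highest at 302.

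Trim54, which binds microtubules and the sarcomere, gave 3015, 3766 and 4167 counts, or 288, 359.5 and 329 CPM. By column totals the order was that of Trim63 reversed, with sham 2 highest and sham 1 lowest, and no intervals overlapped. Its mean of 325 ± 36.1 CPM (SD, n = 3) was the highest of the 6 genes on the CPM scale, which does not allow for gene length.

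Trim55, the remaining MuRF, gave 1226, 1488 and 1550 counts, or 117, 142 and 122 CPM, with a mean of 127 ± 13.2 CPM (SD, n = 3). It was highest in sham 2, apart from the other hearts, and the intervals of sham 1 and sham 3 overlapped. Trim54 and Trim55 thus shared the order of hearts, sham 2, sham 3, sham 1.

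Foxo1 was the lowest of the 6, with 453, 403 and 451 counts, or 43.2, 38.5 and 35.6 CPM, and a mean of 39.1 ± 3.85 CPM (SD, n = 3). Sham 1 was highest, as for Fbxo32 and Trim63, but its interval overlapped that of sham 2 and was apart from sham 3 alone. Foxo3 gave 1210, 1552 and 1304 counts, or 115, 148 and 103 CPM, and a mean of 122 ± 23.4 CPM (SD, n = 3). Sham 2 was highest and the 3 intervals did not overlap.

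**Figure D1:**
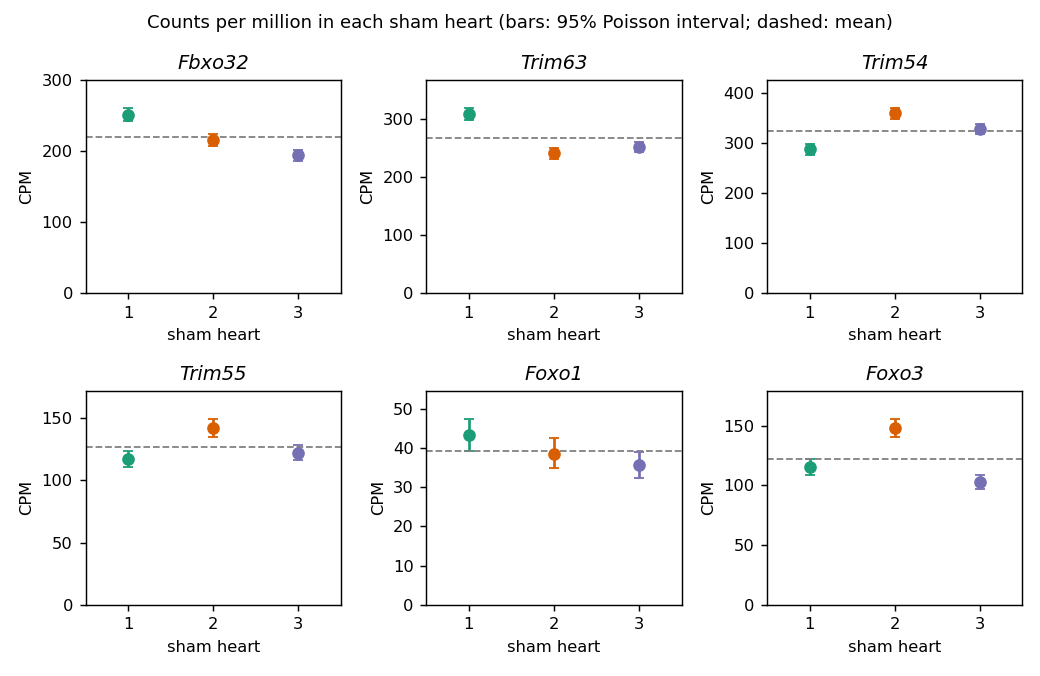
Each panel plots the CPM of 1 gene (y axis, from 0) in sham hearts 1 to 3 (x axis), with bars for the 95% Poisson interval of the count and a dashed line for the mean of the hearts. Fbxo32, Trim63 and Foxo1 are highest in sham 1, and Trim54, Trim55 and Foxo3 are highest in sham 2.

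Levels of different genes were compared per kb of length. Scaled to the merged length of all annotated exons, the order was Trim54 at 227 ± 25.1 CPM per kb (SD, n = 3), Trim63 at 94.0 ± 12.8, Trim55 at 47.8 ± 4.97, Fbxo32 at 31.6 ± 4.14, Foxo3 at 16.1 ± 3.09 and Foxo1 at 4.51 ± 0.444. No 2 neighbours in that order overlapped between hearts, and the order was the same in each of the 3 hearts. The smallest step was from Trim55 to Fbxo32, at 1.51 times, and the largest from Foxo3 to Foxo1, at 3.58 times.

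The place of Fbxo32 depended on the length used, because its annotated exons total 6976 bases, of which 1065 are coding. Per kb of coding sequence it moved above Trim55, at 207 ± 27.1 against 77.8 ± 8.08 CPM per kb (SD, n = 3). On that scale Trim54 (296 ± 32.8) and Trim63 (251 ± 34.0) had overlapping ranges, as did Trim63 and Fbxo32, and Trim54 exceeded Trim63 in 2 of 3 hearts. Foxo3 and Foxo1 kept the lowest places under all 3 lengths tried, with no overlap between them.

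**Figure D2:**
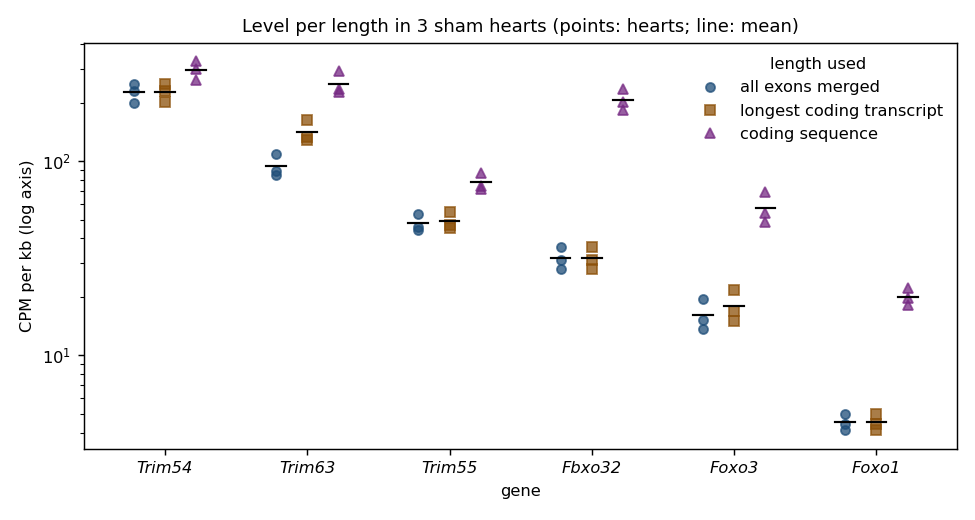
The log y axis gives CPM per kb for each gene (x axis) with 3 measures of length, points are the 3 sham hearts and short lines their means. Fbxo32 stands at 31.6 CPM per kb of merged exons and at 207 per kb of coding sequence, while Foxo1 is lowest with each length.

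Ratios within a heart need no scaling between hearts. The ratio of Trim54 to Trim55, per kb of exon, was 4.55, 4.69 and 4.98 in sham 1, 2 and 3, and the exact binomial 95% intervals of the 3 hearts overlapped. The ratio of Trim54 to Trim63 was 1.85, 2.95 and 2.59, with no overlap of the intervals. Thus the 2 MuRF genes Trim54 and Trim55 held nearly 1 proportion to each other over the hearts, while each changed its proportion to Trim63.

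Fbxo32 stood to Trim63 at 0.332, 0.364 and 0.315 per kb of exon, and the intervals of sham 2 and sham 3 did not overlap while sham 1 overlapped both. Trim55 to Trim63 was 0.405, 0.630 and 0.520. Foxo3 exceeded Foxo1 by 3.06, 4.41 and 3.31 times, with sham 2 apart from the other hearts. The summed level of the 4 ligases was 19.2, 17.5 and 22.1 times that of Foxo1 and Foxo3 together, per kb of exon. This FoxO sum leaves out Foxo6 and Foxo4, and Foxo4 was at 20.1 CPM per kb of exon. These ratios are descriptions, since 3 hearts of 1 group leave no comparison to test.

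The spread between hearts was larger than counting error for each of the 6 genes. The coefficient of variation (CV) was 13.1% for Fbxo32, 13.6% for Trim63, 11.1% for Trim54, 10.4% for Trim55, 9.85% for Foxo1 and 19.1% for Foxo3. Counting alone would give between 1.67% for Trim54 and 4.80% for Foxo1. Observed values were 2.05 times the counting value for Foxo1 and 3.90 to 7.37 times for the other 5 genes.

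Set beside rows of like level, within 2 times of the mean, Foxo3 was the most variable member. Its CV exceeded that of 90.6% of 2239 such rows, whose median was 7.48%. Trim63 exceeded 83.1%, Fbxo32 81.5%, Trim54 74.2% and Trim55 70.5% of their like rows. Foxo1 was near the middle, above 53.9% of 4617 rows with a median CV of 9.18%. The CV of Foxo3 was 8.11% without sham 2, and that of Trim63 was 3.03% without sham 1. The CV of Fbxo32 was 7.33% and that of Trim54 6.30% without sham 1, that of Foxo1 5.49% without sham 1, and that of Trim55 3.17% without sham 2. In each case the heart left out was the farthest from the others. Leaving out the farthest of 3 values always lowers the SD, so a fall is no result about a gene.

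**Figure D3:**
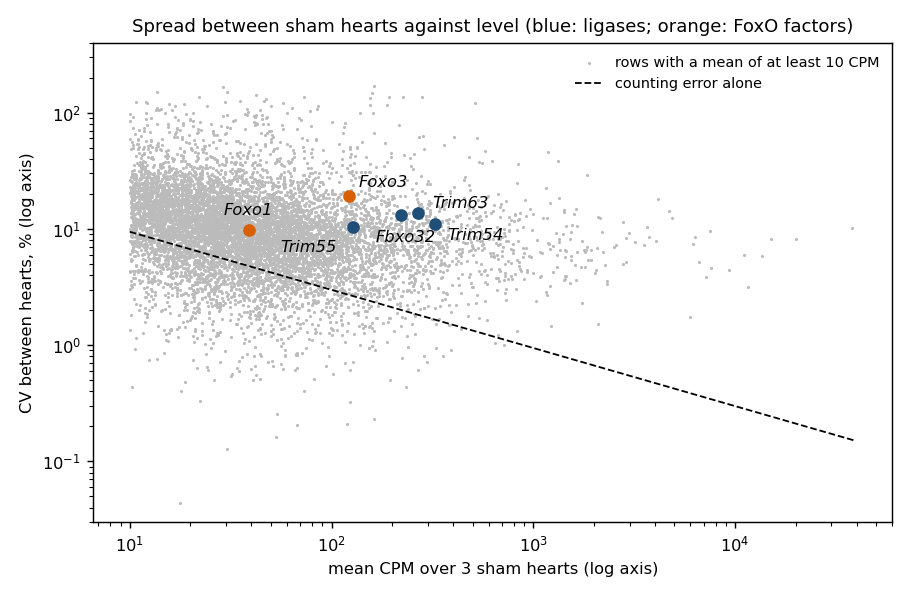
The plot sets the CV between the 3 sham hearts (log y axis, percent) against mean CPM (log x axis) for 8864 rows with a mean of at least 10 CPM in grey, with the ligases in blue, the FoxO factors in orange and the value from counting alone as a dashed line. All 6 members lie above the dashed line, and Foxo3 is the highest of them at 19.1%.

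Fbxo32 resembled Foxo1, and Trim54 resembled Trim55, in their order and spread over the hearts. Likeness was measured as the Euclidean distance between log2(CPM + 1) values after each gene's own mean over the 3 hearts was subtracted. Fbxo32 and Foxo1, the closest pair of members, were 0.0689 apart, and 1.53% of 8742 other rows were closer to Fbxo32 than Foxo1 was. The share was not computed from the side of Foxo1, which had 686 rows within a distance of 0.1 against 293 for Fbxo32. Trim54 and Trim55 were 0.0925 apart, with 3.66% of rows closer to Trim54. Trim63 stood 0.151 from Fbxo32 and 0.148 from Foxo1, while Trim63 and Foxo3 were the farthest pair at 0.536. With 3 hearts many rows are this alike, and the distances are descriptions.

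The rows most like each member were taken by the same distance. Fbxo32 was nearest to Gabarap, which encodes an autophagy protein (3491, 2999 and 3268 counts, distance 0.00243), then Amacr and Ttc12. Nearest to Trim63 were Scn7a, Rtcb and Bud31, and nearest to Trim54 were Nudt12, Cdk8 and Cgrrf1. Trim55 had Nceh1, Uck1 and Ppp2r5b beside it, and Foxo1 had Ddrgk1, Mboat7 and Ccdc32.

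Foxo3 was nearest to Got1, the cytosolic aspartate aminotransferase, with 13364, 16949 and 14354 counts (distance 0.00976), then to Actr3b and Ednra. Within a distance of 0.1, Foxo3 had 38 rows, whereas the other 5 members had 293 to 686. The CV of Foxo3 was the largest of the 6. The distance is not scaled for spread, so having few near rows is not a result apart from that CV.

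Among the 4 FoxO genes of the table, Foxo3 and Foxo4 were the highest. Foxo4 gave 709, 725 and 924 counts and varied little, with a mean of 69.9 ± 2.71 CPM (SD, n = 3) and a CV of 3.88%. Per kb of exon Foxo4 stood at 20.1 ± 0.778 CPM per kb and Foxo3 at 16.1 ± 3.09, with overlapping ranges, and per kb of coding sequence Foxo3 was above Foxo4, at 57.4 against 46.2, with no overlap. Foxo6 was the lowest per kb of exon, at 2.26 ± 0.811, with 87, 54 and 54 counts.

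Upstream of the FoxO factors, all 17 genes of the insulin, IGF and AKT list averaged at least 1 CPM. Akt1 was at 310.5 ± 13.01 CPM and Akt2 at 224 ± 1.75 CPM (SD, n = 3). The median CV of the list was 8.02%. Sgk1, a kinase related to AKT that also phosphorylates FoxO factors, varied most, with 2081, 915 and 691 counts in sham 1, 2 and 3. Sgk1 peaked in sham 1, as did Fbxo32, Trim63 and Foxo1, but most of its list peaked elsewhere. Over sham 1, 2 and 3, the top values of the 17 genes split as 3, 6 and 8 by column totals. With TMM the split was 1, 12 and 4. A peak in sham 1 was also common, at 36.9% of all rows of at least 10 CPM by column totals. A link between Sgk1 and the members was not tested.

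Of 21 genes known as FoxO targets in muscle, all averaged at least 1 CPM and 7 had a CV of 30% or more. Txnip, an inhibitor of thioredoxin, led with 11938, 5618 and 10595 counts, followed by the mitochondrial superoxide dismutase Sod2 at 734 ± 58.2 CPM (SD, n = 3). Pdk4, a kinase that slows pyruvate oxidation, gave 5620, 3503 and 9348 counts and was highest in sham 3. Klf15, a regulator of muscle metabolism, was at 63.0 ± 15.0 CPM and Gadd45a at 19.6 ± 2.52 CPM. By column totals 11 of the 21 were highest in sham 1 and 7 in sham 2, and with TMM 8 were highest in sham 1 and 10 in sham 2. Sham 3 was lowest for 12 of the 21 by column totals, 13 with TMM and 14 with DESeq2 size factors. Of all rows of at least 10 CPM, sham 1 held the highest value for 36.9%, sham 2 for 23.5% and sham 3 for 39.6% by column totals. The shares of all rows lowest in each heart, highest with TMM or at a CV of 30% or more were not computed. The counts of lowest hearts, the TMM counts and the 7 variable genes are thus no result about FoxO targets.

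Other ligases of striated muscle were set beside the members per kb of exon. Of 23 ligases, Trim54 ranked 1, Trim63 ranked 4, Trim55 ranked 7 and Fbxo32 ranked 9. Between Trim54 and Trim63 stood Trim72 (MG53, a membrane repair protein) at 190 ± 9.95 CPM per kb and Asb2, a ligase adaptor for filamins, at 189 ± 13.7 (SD, n = 3). Per kb of coding sequence Asb2 was first at 340 ± 24.7, and Trim54 (296.3 ± 32.8) and Trim72 (295.7 ± 15.5) were nearly equal behind it. The range of Trim54 overlapped those of Asb2 and Trim72, and Fbxo32 ranked 6. Per kb of the longest coding transcript Asb2 was also first, above Trim54. In CPM the highest of the 19 other ligases were Nedd4 at 734 ± 18.1 and Asb2 at 668 ± 48.5.

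The lists of genes that carry out ubiquitin tagging and breakdown had lower median CVs than the 6 members, although single genes overlapped: Psmc5 (10.3%), Ube2g1 (10.3%) and Ube2l3 (10.5%) lay above Foxo1 (9.85%). The 31 proteasome genes had a median CV of 4.18% and the 12 genes for SCF core subunits and ubiquitin-conjugating enzymes 6.37%, against 12.1% for the 6 members and 9.32% for all 8864 rows of at least 10 CPM. Psmd2 (245 ± 23.1 CPM) and Psmc3 (241 ± 15.1 CPM) led the proteasome list, and Ube2d3 (380.3 ± 30.1) and Ube2b (296 ± 23.7) led the enzymes. The 19 other ligases had a median CV of 7.43% and the insulin, IGF and AKT list 8.02%. The FoxO targets were at 12.7%, and a list of myostatin, glucocorticoid and NF-kB inputs at 14.9%. No test of these differences was made.

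Known partners and substrates of the MuRF proteins were abundant. The 12 genes took 2.29% ± 0.133 of all counts (SD, n = 3), led by the troponin Tnni3 at 6168 ± 461 CPM and the myosin-binding protein Mybpc3 at 4895 ± 612. Ttn, the giant sarcomere protein titin that Trim63 binds, gave 41203, 53880 and 63622 counts. Nbr1, an autophagy receptor that links titin to Trim55, was at 173 ± 5.39 CPM.

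Among the myostatin, glucocorticoid and NF-kB inputs that act on these ligases in muscle, 13 of 14 genes averaged at least 1 CPM. The exception was Mstn, the growth inhibitor myostatin, with 8, 5 and 3 counts. Nr3c1, the glucocorticoid receptor, was at 102 ± 3.10 CPM (SD, n = 3). Stat3 (169 ± 16.5 CPM) and the metabolic coactivator Ppargc1a (147 ± 45.4 CPM) led this list.

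Markers of other cell types moved between the same hearts. The 15 ventricular cardiomyocyte markers took 13.9%, 15.2% and 13.6% of counts in sham 1, 2 and 3. Each had a mean over the hearts of 1167 CPM or more, led by Myh6 at 38127 ± 3906 CPM (SD, n = 3) and Atp2a2 at 20090 ± 1645. By column totals 11 of the 15, with Myh6 and Atp2a2 among them, peaked in sham 2, and 13 did so with TMM. Not all followed this order. By column totals 3 peaked in sham 1, including Myl2 (11812, 10810 and 10565 CPM), and 1 had its top value in sham 3. All 9 atrial markers were highest in sham 1, where they took 0.282% of counts against 0.0229% in sham 2 and 0.0648% in sham 3. Nppa gave 12772, 675 and 3186 counts and Myl4 gave 6000, 25 and 1269. Fbxo32, Trim63 and Foxo1 were highest in the heart with the highest atrial share. Trim54, Trim55 and Foxo3 were highest in the heart with the largest summed share of the ventricular list, although Myl2 did not peak there. Of all rows of at least 10 CPM, 36.9% were highest in sham 1 and 23.5% in sham 2 by column totals. The split of the members between these hearts is not read as a result. The part of tissue makeup in the orders of the members was not tested, and in bulk RNA fewer cells of a type and less RNA per cell cannot be told apart.

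Sham 2 was also lowest for 9 of 10 fibroblast, 9 of 9 endothelial and 8 of 10 macrophage markers by column totals. With TMM these counts were 9, 8 and 8, and the share of all rows lowest in sham 2 was not computed. Fibroblast markers took 0.198%, 0.102% and 0.233% of counts in sham 1, 2 and 3, and Dcn (831 ± 206 CPM) and Col3a1 (272 ± 167 CPM) led them. Endothelial markers took 0.149%, 0.121% and 0.163%, with Kdr at 384 ± 78.1 CPM and Cdh5 at 318 ± 21.3. Macrophage markers took 0.0610%, 0.0489% and 0.0780%, with Lyz2 at 230 ± 55.4 CPM and C1qa at 80.0 ± 19.1.

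Smooth muscle and pericyte markers took 0.155%, 0.161% and 0.191% of counts, with Rgs5 at 718 ± 7.24 CPM and Abcc9 at 523 ± 74.8. Erythroid markers took 0.0111%, 0.00827% and 0.0485%, with 709, 522 and 3773 counts for Hbb-bs and 233, 178 and 1083 for Hba-a1. The part of these cells in the members' levels was not tested.

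Skeletal muscle, where the same ligases are also expressed, left little signal. Of 12 skeletal markers, 4 (Myh1, Myh2, Myh4 and Myog) had 0 counts in all 3 hearts, and 3 counts, the limit that a 0 allows, would be 0.286 CPM at the lowest total. The highest were Tnni2 at 1.43 ± 0.408 CPM and Atp2a1 at 1.31 ± 0.240 (SD, n = 3).

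**Figure D4:**
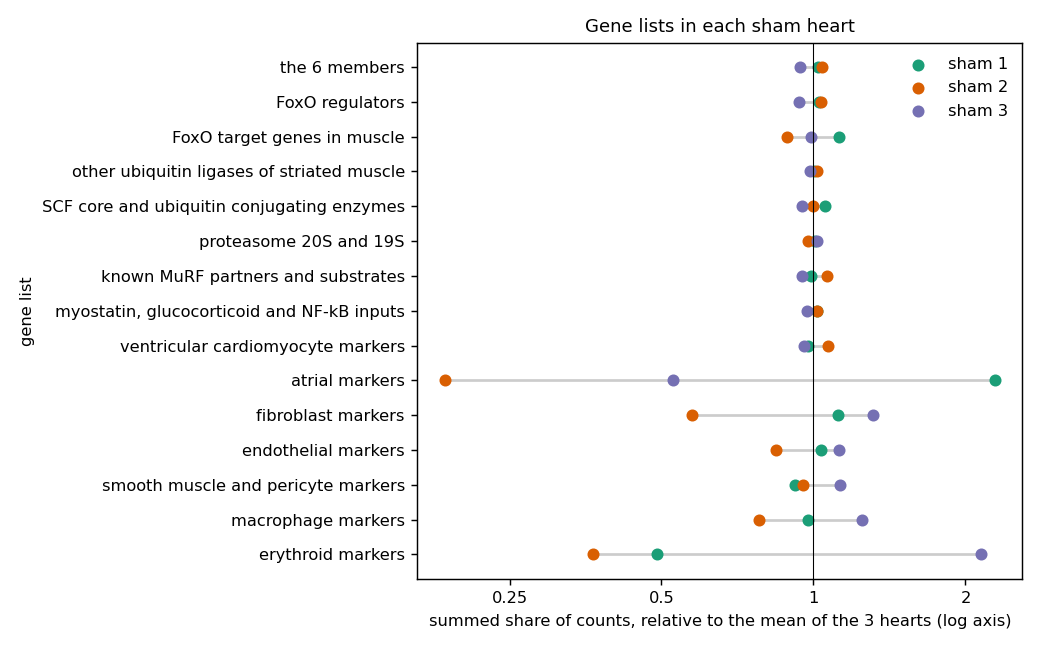
Each row is a gene list (y axis), and the points give its summed share of counts in each sham heart divided by the mean of the 3 hearts (x axis, log scale), with a grey line from the lowest to the highest heart. The summed shares of the members, the other ligases and the proteasome genes lie close to 1, while atrial markers are highest in sham 1 and erythroid markers in sham 3. Single members took opposite orders over the hearts, which partly cancel in their sum.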

How the data were processed

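RNA-seq of mouse heart was read from a deposited table of raw counts per gene symbol, with whole numbers and 1 column per sample, matched to samples by name. The submitters' processing notes name Trimmomatic, HISAT2, HTSeq, DESeq and build mm9. Tool versions, strand settings and gene annotation were not given in the sources used here, so reads shared between MuRF paralogs or with genes that overlap a member may be counted either way. In GENCODE M21, 4 members (Fbxo32, Trim54, Trim55 and Foxo1) overlap another annotated gene, none of which has a row.

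CPM is the count over the column total of all rows, 10474487 to 12669724 in sham. Lengths came from GENCODE M21 (GRCm38), another build, and served as lengths only (207 of 208 listed genes matched, Skp1 not). Intervals are 95% exact Poisson, or Clopper-Pearson for ratios. No test was fitted, because CKD labels did not match their values and 1 group remained. Python 3.11.15, scipy 1.17.1, edgeR 4.0.16 and DESeq2 1.42.0 were used, the last 2 for size factors. The likeness and CV code was tested on simulated data. Of the listed symbols, 3 had no row (Ozz, Skp1a and Ube2d2, older names of listed genes). Irs2, Tnni3, Mybpc3 and Ckm stand in 2 lists each. One gene that the naming rule covers is not reported here.

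Members and lists were chosen with earlier results of these data known. Named genes were the members, the 2 highest of each list, a few fixed regulators and the 3 rows nearest each member with at least 10 CPM and no clone name. Other genes lie outside this rule. Psmc5, Ube2g1, Ube2l3, Trim72, Myl2 and the FoxO targets named for a CV of 30% or more were picked by their values. The rest, such as Ttn and Nbr1, appear to describe a partner, a 0 count, a sequence or a list. Alternatives were other scalings, left-out rows, left-out hearts and, added after seeing the data, other lengths.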

Additional observations from a re-analysis of the deposited data

How the results depend on the processing

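No paired analysis was possible because no test was made and the sham hearts form 1 group. With rows of at least 10 counts in every column, the median correlation of sham with CKD columns changed sign from -0.0552 to 0.00533. Relative to sham 2, TMM lowered all rows of sham 3 by -0.105 on the log2 scale, and DESeq2 size factors by -0.117. Ratios within a heart do not change with scaling. TMM and DESeq2 scaling moved no mean level of a member by 1 SD. Both keep the average total nearly the same, so a mean over the hearts could move little and this does not bear on stability. Under all 4 other scalings each member kept its highest heart.

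Without the 10 highest rows in the totals, CPM was 257 for Fbxo32, 311 for Trim63, 379 for Trim54, 148 for Trim55 and 45.5 for Foxo1. With that total, shares were 0.00883% for other FoxO factors, 0.197% for FoxO regulators, 0.452% for FoxO targets, 0.380% for other ligases, 0.201% for SCF and conjugating enzymes, 0.417% for proteasome, 2.67% for MuRF partners, 0.0892% for inputs, 3.25% for ventricular, 0.168% for endothelial and 0.197% for smooth muscle and pericyte lists. These shifts follow from the smaller total, and the ventricular fall from the removal of its highest genes.

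With no length, levels were 220.4 CPM for Fbxo32, 267 for Trim63, 325 for Trim54, 127 for Trim55, 39.1 for Foxo1 and 122 for Foxo3. Per kb of coding sequence they were 207, 251, 296, 77.8, 19.99 and 57.4, and per kb of the longest coding transcript Trim63 was at 142. With coding length, ratios were 0.827 for Fbxo32 to Trim63, 1.21 for Trim54 to Trim63, 0.316 for Trim55 to Trim63, 3.81 for Trim54 to Trim55 and 10.9 for ligases to FoxO factors. With the longest transcript the first 3 were 0.224, 1.64 and 0.352.

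Leaving out 1 heart gave CVs of 7.33% to 18.1% for Fbxo32, 3.03% to 17.3% for Trim63, 6.30% to 15.7% for Trim54, 3.17% to 13.7% for Trim55, 5.49% to 13.7% for Foxo1 and 8.11% to 25.5% for Foxo3. A mean over 3 hearts always stays within 1 SD when 1 is dropped, so this setting does not bear on the stability of levels. A gene at 0 could reach 0.286 CPM unseen.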

Other observations

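The 7 FoxO target genes with a CV of 30% or more did not share 1 order over the hearts. By column totals sham 1 held the highest value for 4 of them, sham 2 for 1 and sham 3 for 2. Of all rows of at least 10 CPM, sham 1 was highest for 36.9%, sham 2 for 23.5% and sham 3 for 39.6%. The share of all rows at a CV of 30% or more was not computed, so these counts are no result about FoxO targets. Ddit4, an inhibitor of mTOR signalling, gave 1470, 447 and 352 counts in sham 1, 2 and 3, and Cdkn1a, a cell cycle inhibitor, gave 856, 190 and 552. Gabarapl1, an autophagy gene, gave 1730, 1071 and 1146 counts, and Txnip, whose counts are given above, was the other gene highest in sham 1. Irs2, the insulin receptor substrate, gave 297, 317 and 138 counts, highest in sham 2. Sesn3, a stress-response gene, gave 48, 65 and 114 counts and was highest in sham 3, as was Pdk4. The threshold of 30% was set with these data known. These orders were not tested.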
